A study of Rattus norvegicus with 12 samples.

Results

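Tgfb1, Tgfb3, Tgfbr1, Tgfbr2, Tgfbr3, Smad2, Smad3, Smad4, Smad6 and Smad7 encode ligands, receptors and SMAD proteins of the TGF-beta pathway, and were followed here across siRNA knockdown of Btg1 and Btg2 in neonatal rat heart cell cultures. They were chosen by gene symbol, and all 10 were present among the 17419 rows of the deposited count and TPM tables. All 10 also passed the filter on low counts that left 12535 genes for testing. The TGF-beta ligand Tgfb2 is not described here.

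Bulk RNA-seq was made from 12 libraries in 4 groups of 3: double knockdown (10 nM siBtg1 with 10 nM siBtg2), Btg1 knockdown (10 nM siBtg1 with 10 nM siScramble), Btg2 knockdown (10 nM siBtg2 with 10 nM siScramble) and scramble (20 nM siScramble). All cells came from ventricles of wild-type newborn (P0) Sprague-Dawley rats. Cardiomyocytes were enriched by removing fibroblasts before plating, were grown in medium with serum, were transfected by lipofection and were frozen 48 hours later. No label ties a library to its own isolation or animals, so the p-values measure the spread between libraries, which may be technical.

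TGF-beta ligands are secreted as latent dimers held in the matrix and, once released, bind the type II receptor TGFBR2, which recruits and phosphorylates the type I receptor TGFBR1. The receptor complex phosphorylates SMAD2 and SMAD3, which join SMAD4 and enter the nucleus to regulate transcription, while SMAD6 and SMAD7 are inhibitory SMADs that oppose receptor signalling. In the heart the pathway is best known for its role in fibroblast activation and matrix deposition, and it also takes part in development and in the response of cardiomyocytes to load.

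The libraries held 24434925 to 46206581 assigned counts, so that 1 count was worth 0.0213 to 0.0422 CPM (counts scaled to the library's total, the usual unit of RNA-seq abundance), and every member had at least 745 counts (Smad6) in every library. The siRNA targets followed the labels. Btg1 averaged 51.7 CPM in double knockdown and 66.2 CPM in Btg1 knockdown, against 283 CPM in scramble (log2 changes of -2.45 and -2.10), and was at 299 CPM in Btg2 knockdown. Btg2 averaged 68.7 CPM in double knockdown and 85.2 CPM in Btg2 knockdown, against 139 CPM in scramble (log2 changes of -1.01 and -0.70). In Btg1 knockdown Btg2 rose to 175 CPM (log2 change 0.34 ± 0.04 against scramble, edgeR adjusted p = 7.5e-07). The 10 cardiomyocyte markers summed to 34839 to 35730 TPM in double knockdown, 33040 to 37688 TPM in Btg1 knockdown, 35186 to 39397 TPM in Btg2 knockdown and 33000 to 33542 TPM in scramble, and none was at 0. Of these, 2 rose and 3 fell in double knockdown, 2 rose and 4 fell in Btg1 knockdown, and 4 rose and 0 fell in Btg2 knockdown. By the same rule, given below, 38.9%, 36.5% and 30.0% of all tested genes were called in the same order. Markers of other heart cells were present too, and their levels are given after the pathway lists.

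In outline, the ligand Tgfb3 and the inhibitory SMADs Smad6 and Smad7 rose in Btg1 knockdown against scramble, and Tgfb3 and Smad7 were lower in double knockdown than in Btg1 knockdown, as was Smad6 by a call that leaving out a single library could end. The type I receptor Tgfbr1 fell and the type II receptor Tgfbr2 rose in double knockdown. In Btg2 knockdown Tgfbr2 rose, as did the co-receptor Tgfbr3 by a call that leaving out any 1 of the 6 libraries compared ended. Tgfb1, Smad2, Smad3 and Smad4 passed the test in no comparison with scramble. A gene was called where the adjusted p of edgeR's quasi-likelihood test (Benjamini-Hochberg over all 12535 genes of a comparison) was under 0.05, and every CPM below is scaled by TMM factors. Log2 changes are given with their standard error (SE), group means with their SD over n = 3 libraries.

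**Figure D1:**
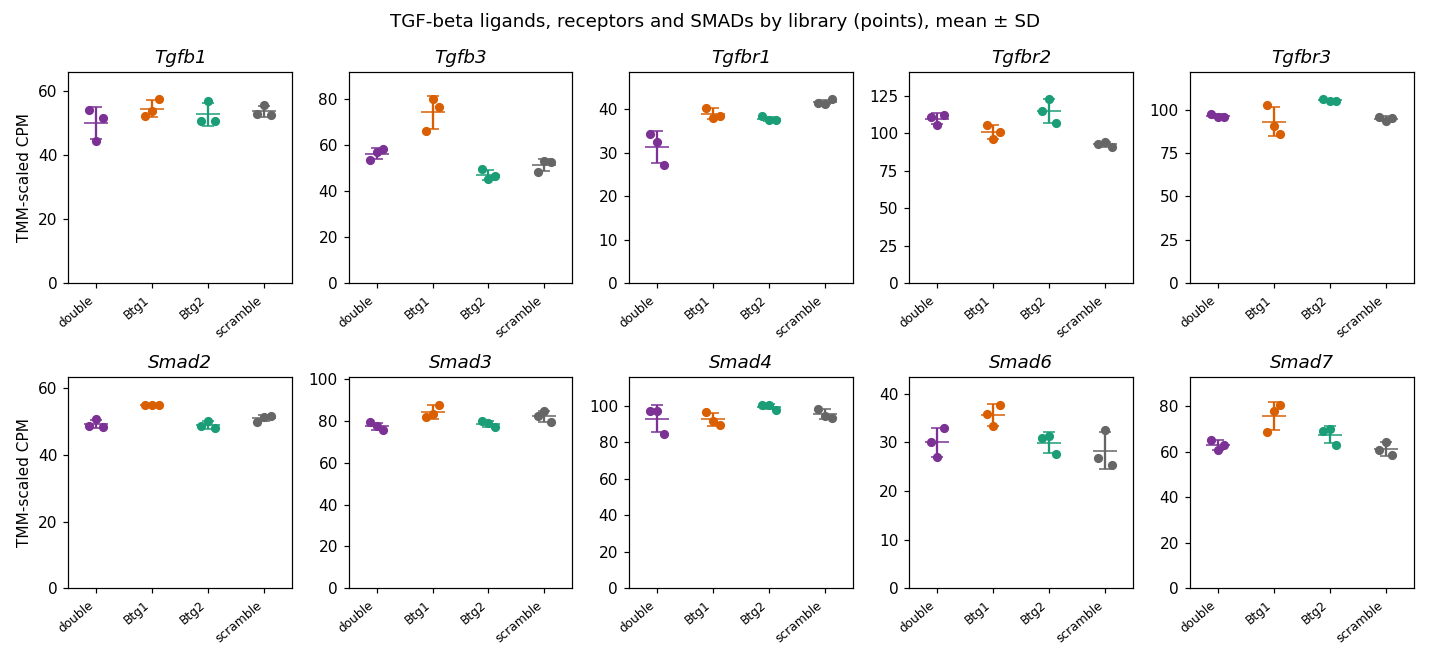
TMM-scaled CPM of the 10 members (vertical axes from 0, 1 panel a gene) in double knockdown, Btg1 knockdown, Btg2 knockdown and scramble; points are libraries and bars the mean ± SD (n = 3). The 3 Btg1 knockdown libraries of Tgfb3 sit at 66.0 to 79.9 CPM, above every other library, and the 3 double knockdown libraries of Tgfbr1 sit at 27.1 to 34.4 CPM, below every other library.

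Among the ligands, Tgfb3, the isoform known for its part in palate fusion and scarring, differed between the groups. It had 53.6, 56.8 and 58.1 CPM in double knockdown, 66.0, 79.9 and 76.7 CPM in Btg1 knockdown, 49.5, 45.4 and 46.5 CPM in Btg2 knockdown, and 48.2, 53.2 and 52.4 CPM in scramble. The Btg1 knockdown libraries were higher than all other libraries, and the double knockdown libraries lay between them and the scramble libraries without overlap. In Btg1 knockdown Tgfb3 rose by 0.53 ± 0.06 on the log2 scale against scramble (74.2 ± 7.30 against 51.3 ± 2.68 CPM, edgeR adjusted p = 5.2e-07). In double knockdown the log2 change was 0.13 ± 0.06 (56.2 ± 2.36 CPM, edgeR adjusted p = 0.104) and in Btg2 knockdown -0.12 ± 0.06 (47.1 ± 2.14 CPM, edgeR adjusted p = 0.164), and neither passed. Set against the single knockdowns, Tgfb3 was lower in double knockdown than in Btg1 knockdown (log2 change -0.40 ± 0.06, edgeR adjusted p = 5.6e-05) and higher than in Btg2 knockdown (0.25 ± 0.06, edgeR adjusted p = 0.0036).

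The promoter window of Tgfb3 is shown because this was the member with the largest change against scramble. It covers 250 bases before to 50 bases after the gene's start (RefSeq, build GRCr8, chr6:111456897-111457196, minus strand), is 47.7% G and C, and holds none of the 7 motifs searched, so no letters are in capitals.
Tgfb3: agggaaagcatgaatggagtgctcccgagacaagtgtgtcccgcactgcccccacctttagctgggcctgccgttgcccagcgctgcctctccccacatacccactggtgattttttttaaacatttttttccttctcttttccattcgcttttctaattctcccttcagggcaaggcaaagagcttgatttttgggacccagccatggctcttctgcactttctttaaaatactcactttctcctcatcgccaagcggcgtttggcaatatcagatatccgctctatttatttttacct

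Tgfb1, the most widely expressed isoform and the main profibrotic one, had 53.8, 44.2 and 51.5 CPM in double knockdown, 52.2, 53.6 and 57.3 CPM in Btg1 knockdown, 50.6, 56.8 and 50.5 CPM in Btg2 knockdown, and 52.8, 55.6 and 52.5 CPM in scramble. All 4 groups overlapped, and no comparison passed the test. The value farthest from 0 against scramble was in double knockdown, with a log2 change of -0.11 ± 0.06 (edgeR adjusted p = 0.204). Per length, Tgfb3 stood at 0.553, 0.714 and 0.627 of the TPM of Tgfb1 in double knockdown, 0.702, 0.829 and 0.745 in Btg1 knockdown, 0.543, 0.444 and 0.512 in Btg2 knockdown, and 0.508, 0.532 and 0.556 in scramble. The ratio was thus highest in Btg1 knockdown, whose lowest library still overlapped the highest of double knockdown.

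The receptors moved in opposite directions in double knockdown. Tgfbr1, the type I receptor kinase that phosphorylates SMAD2 and SMAD3, had 34.4, 32.5 and 27.1 CPM in double knockdown, 40.4, 38.1 and 38.5 CPM in Btg1 knockdown, 38.4, 37.6 and 37.5 CPM in Btg2 knockdown, and 41.5, 41.2 and 42.3 CPM in scramble. Every knockdown library was below every scramble library, and the double knockdown libraries were below those of both single knockdowns. Tgfbr1 fell by 0.41 on the log2 scale in double knockdown (31.3 ± 3.75 against 41.7 ± 0.537 CPM in scramble, SE 0.06, edgeR adjusted p = 2.0e-05). In Btg1 knockdown the log2 change was -0.10 ± 0.06 (39.0 ± 1.22 CPM, edgeR adjusted p = 0.258) and in Btg2 knockdown -0.14 ± 0.06 (37.8 ± 0.474 CPM, edgeR adjusted p = 0.109), and neither passed although the libraries did not overlap. Tgfbr1 was also lower in double knockdown than in Btg1 knockdown (log2 change -0.32 ± 0.06, edgeR adjusted p = 9.2e-04) and than in Btg2 knockdown (-0.27 ± 0.07, edgeR adjusted p = 0.0022).

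The windows of both signalling receptors are shown because their levels moved apart (RefSeq, GRCr8, chr5:66449148-66449447, plus strand for Tgfbr1, and chr8:124761420-124761719, minus strand for Tgfbr2). The Tgfbr1 window is 74.7% G and C and its capitals mark 1 match to GGCGCC, a GC-rich element that SMADs can bind, 242 bases before the start. The Tgfbr2 window is 59.0% G and C and holds none of the motifs.
Tgfbr1: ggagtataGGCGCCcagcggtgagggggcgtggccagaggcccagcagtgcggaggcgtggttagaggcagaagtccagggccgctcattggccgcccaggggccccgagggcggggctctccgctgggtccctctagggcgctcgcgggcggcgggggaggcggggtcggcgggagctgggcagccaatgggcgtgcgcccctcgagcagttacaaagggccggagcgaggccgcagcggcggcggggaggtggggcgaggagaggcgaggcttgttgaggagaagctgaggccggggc
Tgfbr2: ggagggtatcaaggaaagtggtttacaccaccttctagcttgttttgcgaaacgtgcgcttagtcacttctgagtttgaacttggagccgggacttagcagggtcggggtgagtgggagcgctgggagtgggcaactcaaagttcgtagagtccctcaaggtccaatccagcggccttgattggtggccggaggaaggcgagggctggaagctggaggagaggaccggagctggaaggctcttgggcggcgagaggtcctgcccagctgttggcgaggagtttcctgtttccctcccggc

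Tgfbr2, the type II receptor that binds the ligand first, had 111, 106 and 112 CPM in double knockdown, 105, 96.4 and 101 CPM in Btg1 knockdown, 115, 123 and 107 CPM in Btg2 knockdown, and 93.1, 94.4 and 91.1 CPM in scramble. Every knockdown library was above every scramble library. Tgfbr2 rose in double knockdown (log2 change 0.24 ± 0.05, 110 ± 3.60 against 92.9 ± 1.68 CPM, edgeR adjusted p = 3.2e-04) and in Btg2 knockdown (0.31 ± 0.05, 115 ± 7.81 CPM, edgeR adjusted p = 4.3e-05). In Btg1 knockdown it averaged 101 ± 4.51 CPM, with a log2 change of 0.12 ± 0.05 that narrowly missed the threshold (edgeR adjusted p = 0.053). That change passed in 8 of 21 alternative runs, among them the fit with only the groups compared (edgeR adjusted p = 0.020). Btg1 knockdown was lower than Btg2 knockdown (log2 change -0.19 ± 0.05, edgeR adjusted p = 0.0033), while the double knockdown passed against neither single knockdown (0.12 ± 0.05 against Btg1 knockdown, edgeR adjusted p = 0.074, and -0.07 ± 0.05 against Btg2 knockdown, edgeR adjusted p = 0.325).

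Per length, the level of Tgfbr2 was 8.89, 8.97 and 11.3 times that of Tgfbr1 in double knockdown, 7.19, 6.93 and 7.25 times in Btg1 knockdown, 8.26, 8.98 and 7.85 times in Btg2 knockdown, and 6.16, 6.32 and 5.92 times in scramble (ratios of TPM). The 3 knockdown groups all lay above scramble without overlap, and Btg1 knockdown lay below the other knockdown groups.

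Tgfbr3, or betaglycan, a co-receptor that presents ligand to TGFBR2, had log2 changes of -0.02 to 0.15 against scramble. It had 97.8, 95.6 and 95.5 CPM in double knockdown, 103, 90.8 and 85.9 CPM in Btg1 knockdown, 106, 105 and 105 CPM in Btg2 knockdown, and 95.8, 93.3 and 95.1 CPM in scramble. The Btg2 knockdown libraries were above all others, and those of Btg1 knockdown spread widely around the scramble level. Tgfbr3 rose in Btg2 knockdown (log2 change 0.15 ± 0.05, edgeR adjusted p = 0.022), but leaving out any 1 of the 6 libraries compared ended that call (edgeR adjusted p = 0.0508 to 0.0812). Its log2 change against scramble was 0.02 ± 0.05 in double knockdown and -0.02 ± 0.05 in Btg1 knockdown. It was lower than in Btg2 knockdown both in double knockdown (log2 change -0.13 ± 0.05, edgeR adjusted p = 0.048) and in Btg1 knockdown (-0.18 ± 0.05, edgeR adjusted p = 0.0061). Leaving out any 1 of 10 libraries ended the first of these calls (edgeR adjusted p = 0.0568 to 0.107), and leaving out Btg1 knockdown replicate 3 ended the second (edgeR adjusted p = 0.0562).

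The receptor-regulated SMADs, which carry the signal from TGFBR1 to the nucleus, passed the test against scramble in no group. Smad2 had 48.7, 50.6 and 48.3 CPM in double knockdown, 55.0, 55.0 and 54.9 CPM in Btg1 knockdown, 48.8, 50.1 and 47.9 CPM in Btg2 knockdown, and 49.9, 51.4 and 51.7 CPM in scramble. The Btg1 knockdown libraries were nearly equal and above all others. Smad2 was lower in double knockdown than in Btg1 knockdown (log2 change -0.16 ± 0.04, edgeR adjusted p = 0.012) and higher in Btg1 knockdown than in Btg2 knockdown (0.17 ± 0.05, edgeR adjusted p = 0.0043), while Btg1 knockdown against scramble gave 0.11 ± 0.04 (edgeR adjusted p = 0.064).

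Smad3 had 79.3, 77.4 and 75.8 CPM in double knockdown, 81.8, 83.2 and 87.8 CPM in Btg1 knockdown, 80.0, 78.9 and 77.0 CPM in Btg2 knockdown, and 82.6, 84.9 and 79.6 CPM in scramble. Its 1 call was a fall of double knockdown against Btg1 knockdown (log2 change -0.12 ± 0.04, edgeR adjusted p = 0.0493), which leaving out any 1 of 11 of the 12 libraries ended (edgeR adjusted p = 0.0514 to 0.216). Smad4, the common partner of the receptor-regulated SMADs, had 97.2, 97.3 and 84.9 CPM in double knockdown, 96.6, 92.0 and 89.7 CPM in Btg1 knockdown, 100, 101 and 97.9 CPM in Btg2 knockdown, and 98.5, 94.4 and 93.4 CPM in scramble. It passed in no comparison, and replicate 3 of the double knockdown was its lowest library.

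The inhibitory SMADs both rose in Btg1 knockdown and passed the test against scramble in neither other knockdown. Smad7, which blocks TGFBR1 and recruits ubiquitin ligases to it, had 65.2, 60.6 and 63.2 CPM in double knockdown, 68.9, 78.1 and 80.8 CPM in Btg1 knockdown, 69.3, 70.2 and 63.2 CPM in Btg2 knockdown, and 60.9, 64.5 and 58.5 CPM in scramble. The Btg1 knockdown libraries were above those of double knockdown and scramble, and overlapped with Btg2 knockdown. Smad7 rose in Btg1 knockdown by 0.31 ± 0.06 on the log2 scale (75.9 ± 6.20 against 61.3 ± 3.03 CPM in scramble, edgeR adjusted p = 2.1e-04). The log2 change was 0.04 ± 0.06 in double knockdown (63.0 ± 2.32 CPM, edgeR adjusted p = 0.628) and 0.14 ± 0.06 in Btg2 knockdown (67.6 ± 3.83 CPM, edgeR adjusted p = 0.081). Double knockdown was lower than Btg1 knockdown (log2 change -0.27 ± 0.06, edgeR adjusted p = 0.0017) and did not pass against Btg2 knockdown (-0.10 ± 0.06, edgeR adjusted p = 0.216). Btg1 knockdown was higher than Btg2 knockdown (0.17 ± 0.06, edgeR adjusted p = 0.023), a call that ended without Btg1 knockdown replicate 2 or 3 or Btg2 knockdown replicate 3 (edgeR adjusted p = 0.0844 to 0.153).

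The Smad7 window (RefSeq, GRCr8, chr18:71263258-71263557, plus strand) is shown because Smad7 departed most from additivity, as described below, and because it held more than 1 motif match. It is 77.7% G and C, and its capitals mark GGCGCC at 96 and 36 bases before the start.
Smad7: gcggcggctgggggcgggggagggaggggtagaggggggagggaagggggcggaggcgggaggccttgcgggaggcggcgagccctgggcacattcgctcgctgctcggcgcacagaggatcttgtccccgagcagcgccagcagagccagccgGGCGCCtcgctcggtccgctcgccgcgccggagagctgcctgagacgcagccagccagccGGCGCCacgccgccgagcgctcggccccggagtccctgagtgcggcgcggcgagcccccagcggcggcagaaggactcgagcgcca

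Smad6, the inhibitory SMAD that acts mainly on the BMP branch, had 30.0, 27.1 and 32.9 CPM in double knockdown, 35.9, 33.3 and 37.7 CPM in Btg1 knockdown, 30.9, 31.4 and 27.6 CPM in Btg2 knockdown, and 26.8, 32.6 and 25.4 CPM in scramble. The Btg1 knockdown libraries were above all others, and scramble replicate 2 stood above its fellow scramble libraries. Smad6 rose in Btg1 knockdown (log2 change 0.33 ± 0.09, 35.7 ± 2.21 against 28.3 ± 3.81 CPM in scramble, edgeR adjusted p = 0.0050). It averaged 30.0 ± 2.94 CPM in double knockdown and 30.0 ± 2.08 CPM in Btg2 knockdown, with log2 changes of 0.08 ± 0.09 in each (edgeR adjusted p = 0.481 and 0.549). Smad6 was lower in double knockdown than in Btg1 knockdown (-0.25 ± 0.09, edgeR adjusted p = 0.044) and higher in Btg1 knockdown than in Btg2 knockdown (0.25 ± 0.09, edgeR adjusted p = 0.024). The first of these calls ended when any 1 of 6 libraries was left out (edgeR adjusted p = 0.0536 to 0.195), and the second without Btg1 knockdown replicate 1 or 3 or Btg2 knockdown replicate 3 (edgeR adjusted p = 0.0650 to 0.127).

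Per length, Smad6 and Smad7 together stood at 1.48, 1.35 and 1.59 times the summed TPM of Smad2 and Smad3 in double knockdown, 1.57, 1.57 and 1.66 times in Btg1 knockdown, 1.53, 1.55 and 1.42 times in Btg2 knockdown, and 1.30, 1.45 and 1.25 times in scramble. Btg1 knockdown lay above scramble without overlap, and the other groups overlapped with one or both.

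Counted over the 10 members, 1 rose and 1 fell in double knockdown against scramble, where 38.9% of all tested genes were called. In Btg1 knockdown 3 rose and 0 fell, against 36.5% of all tested genes called. In Btg2 knockdown 2 rose and 0 fell, against 30.0% of all tested genes called. These comparisons share the scramble libraries, and no test of the members' share against that of all genes was made. The median size of the log2 change over the members was 0.09 in double knockdown, 0.10 in Btg1 knockdown and 0.10 in Btg2 knockdown, against 0.16, 0.15 and 0.14 over all tested genes.

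**Figure D2:**
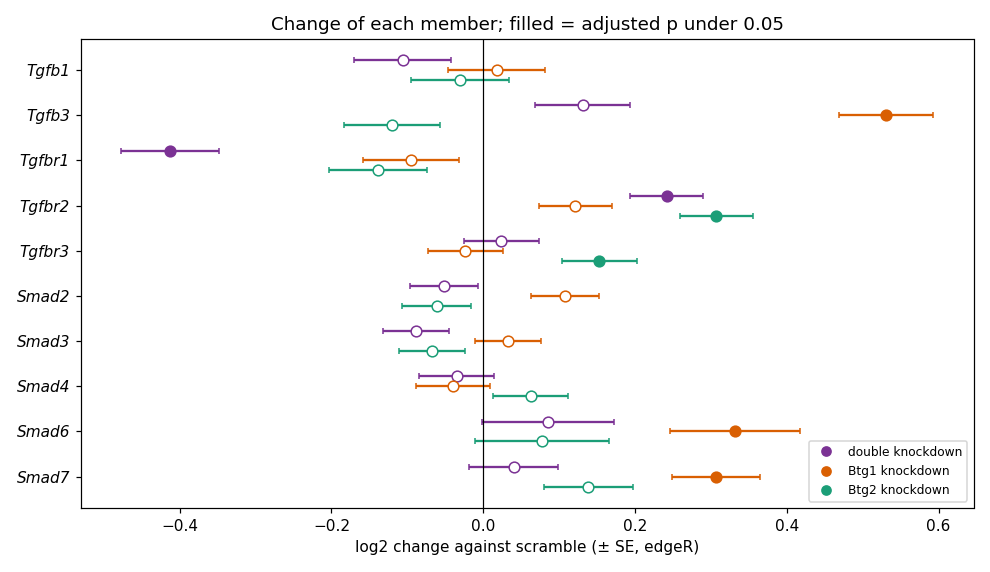
Log2 change against scramble (horizontal axis) of each member in double knockdown, Btg1 knockdown and Btg2 knockdown, with bars of 1 SE from edgeR; filled points have an adjusted p under 0.05. The filled points are Tgfbr1 (-0.41) and Tgfbr2 (0.24) in double knockdown, Tgfb3 (0.53), Smad6 (0.33) and Smad7 (0.31) in Btg1 knockdown, and Tgfbr2 (0.31) and Tgfbr3 (0.15) in Btg2 knockdown.

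The knockdowns were also compared with each other. In double knockdown against Btg1 knockdown, 6 members fell (Tgfb3, Tgfbr1, Smad2, Smad3, Smad6 and Smad7) and 0 rose, where 22.3% of all tested genes were called and the members' median log2 change was -0.14 against -0.00 over all genes. The count was 3 with limma on log2 TPM. In double knockdown against Btg2 knockdown, Tgfb3 rose and Tgfbr1 and Tgfbr3 fell, where 32.2% of all tested genes were called. In Btg1 knockdown against Btg2 knockdown, 4 members rose (Tgfb3, Smad2, Smad6 and Smad7) and 2 fell (Tgfbr2 and Tgfbr3), where 40.8% of all tested genes were called. The first of these was Tgfb3, with a log2 change of 0.65 ± 0.06 (edgeR adjusted p = 2.3e-08), and without Btg1 knockdown replicate 3 the count of 6 became 3.

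Whether the double knockdown equalled the sum of the single knockdowns on the log2 scale was tested as an interaction. Smad7 was at 0.04 in double knockdown, where the single changes summed to 0.45, a departure of -0.41 ± 0.08 (edgeR adjusted p = 0.0015). Tgfb3 was at 0.13, where the single changes summed to 0.41, a departure of -0.28 ± 0.09 (edgeR adjusted p = 0.036). Leaving out any 1 of 7 libraries ended the call of Tgfb3 (scramble replicate 1, double knockdown replicate 1 or 2, Btg1 knockdown replicate 2 or 3, and Btg2 knockdown replicate 1 or 3, edgeR adjusted p = 0.0512 to 0.110). The other 8 did not pass, with departures from -0.05 for Smad3 to -0.32 for Smad6. The median departure was -0.14 over the members and 0.01 over all tested genes, and its median size was 0.14 in both. The share of all tested genes below their sum was not computed. Smad4 turned to 0.01 above its sum without double knockdown replicate 3. Smad6 had an edgeR adjusted p of 0.083 that became 0.0093 without scramble replicate 2 and 0.034 without double knockdown replicate 3. Tgfbr2 had a departure of -0.19 ± 0.07 with an edgeR adjusted p of 0.068, which became 0.048 without double knockdown replicate 3, 0.045 without Btg1 knockdown replicate 2 and 0.025 without Btg2 knockdown replicate 3. Thus 2 of 10 members departed, both downward, where 15.1% of all tested genes did, 626 of them upward and 1264 downward (33.1% upward, but 49.7% when libraries were scaled by their size alone). The 4 terms of the departure share libraries with the comparisons above. The siRNA targets departed as well, Btg1 by -0.44 ± 0.06 (edgeR adjusted p = 2.9e-05) and Btg2 by -0.65 ± 0.06 (edgeR adjusted p = 1.4e-07). Btg1 was lower in double than in Btg1 knockdown (51.7 against 66.2 CPM, edgeR adjusted p = 5.6e-06). Btg2 was lower in double than in Btg2 knockdown (68.7 against 85.2 CPM, edgeR adjusted p = 6.2e-06). The part of this difference in knockdown in the members' departures was not tested.

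**Figure D3:**
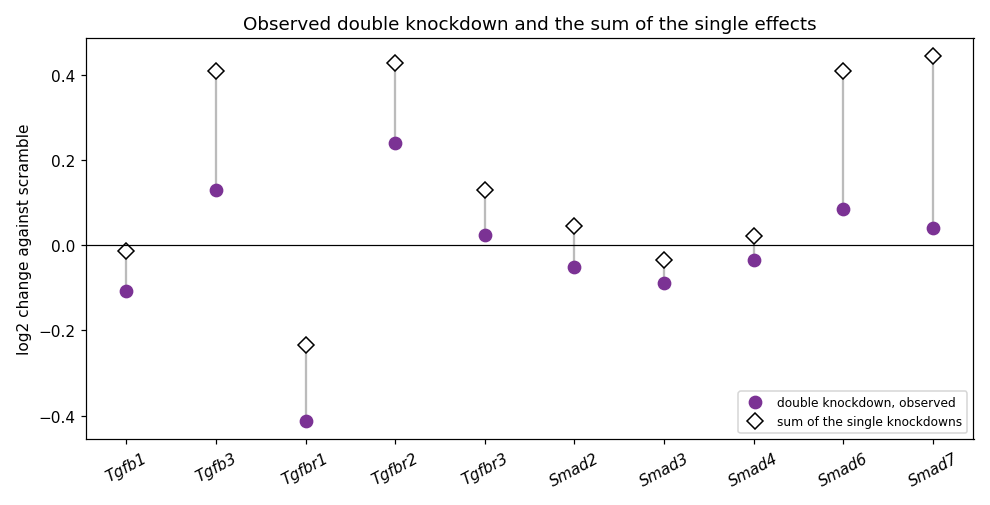
Log2 change against scramble (vertical axis) of each member in double knockdown as observed (filled circles) and as the sum of the single knockdown changes (open diamonds), joined by a line. The circle lies below the diamond by 0.41 for Smad7 and 0.28 for Tgfb3, which passed the test, and by 0.05 for Smad3.

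Levels were compared between genes by the deposited TPM, which are scaled for length. In scramble the order was Tgfbr2 (88.3 ± 1.31 TPM), Tgfb1 (72.7 ± 2.26 TPM), Smad4 (64.2 ± 1.50 TPM), Tgfbr3 (47.6 ± 0.666 TPM), Smad6 (40.5 ± 5.41 TPM), Tgfb3 (38.7 ± 2.17 TPM), Smad3 (32.3 ± 0.902 TPM), Smad7 (28.1 ± 1.33 TPM), Smad2 (19.3 ± 0.458 TPM) and Tgfbr1 (14.4 ± 0.265 TPM), each as mean ± SD of 3 libraries. Among neighbours in that order, Smad6 and Tgfb3 overlapped in their libraries, and the others did not. Double knockdown kept the order, with Tgfbr2 at 105 TPM and Tgfbr1 at 10.9 TPM, and there Tgfb1 and Smad4, Smad6 and Tgfb3, and Smad3 and Smad7 overlapped. In Btg1 knockdown Tgfb3 at 55.7 ± 4.58 TPM stood above Smad6 at 50.9 TPM and Tgfbr3 at 46.7 TPM, and Smad7 at 34.8 TPM stood above Smad3 at 32.9 TPM. These changes of order were within the spread, since Tgfb3 (50.7 to 59.7 TPM) overlapped Smad6 (47.4 to 53.0 TPM) and Tgfbr3 (42.3 to 52.5 TPM), and Smad7 (32.3 to 36.4 TPM) overlapped Smad3 (32.3 to 33.7 TPM). In Btg2 knockdown Smad7 at 30.9 TPM and Smad3 at 30.7 TPM overlapped. The type I receptor was thus the lowest member in all 4 groups and the type II receptor the highest.

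**Figure D4:**
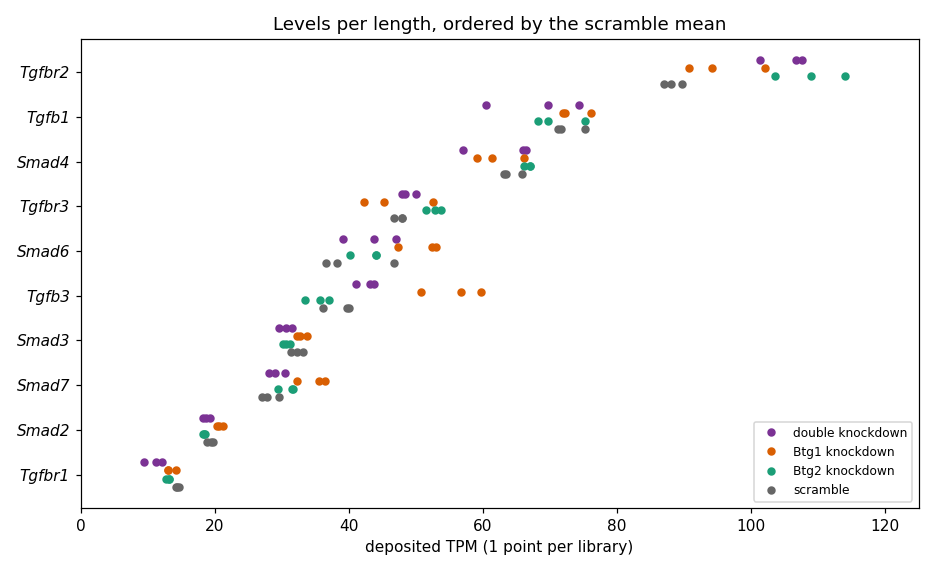
Deposited TPM (horizontal axis) of each member in the 12 libraries, 1 point a library, ordered from top to bottom by the scramble mean. Tgfbr2 is highest (88.3 TPM in scramble) and Tgfbr1 lowest (14.4 TPM), and the Btg1 knockdown points of Tgfb3 move up beyond the other groups.

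The genes most like 3 members across the 12 libraries were found by the root mean square difference of log2 CPM centred on scramble, over 9780 genes and as a description. For Tgfb3 they included Rin3 (0.0769) and Arhgef39 (0.0787), where the median gene was at 0.323. For Tgfbr1 they were Rybp (0.0698), Prss23 (0.0702) and Zcchc24 (0.0738), where the median gene was at 0.273. For Smad6 they were Pdlim7 (0.0870), LOC314140 (0.0915) and Tgfb1i1 (0.0957), where the median gene was at 0.257. A gene that stayed at its scramble mean in every library would lie nearer than the median gene, at 0.290 from Tgfb3, 0.238 from Tgfbr1 and 0.213 from Smad6.

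Across the promoter windows of the members, 9 of the 10 genes had an entry, with 10 windows in all because Smad2 had 2. All are credited to RefSeq, build GRCr8. The motif GGCGCC was in 6 of the 10 windows (both of Smad2, Smad3, Smad7, Tgfbr1 and Tgfbr3), against 11.0% of all 33469 windows of the same 300 bases. The 2 windows of Smad2 overlap and share 1 of these matches, so that by gene the motif was in 5 of 9. Those 6 windows were 69.7% to 82.7% G and C, against a median of 51.7% over all windows. TATAAA was in the Smad4 window alone, against 14.2% of all windows. The SMAD palindrome GTCTAGAC (0.197% of all windows), the CAGA box CAGACA (21.1%), the shorter SMAD element GTCTG (50.1%), the cyclic AMP element TGACGTCA (1.83%) and the AP-1 site TGANTCA (7.33%) were in 0 of the 10 windows. Both strands were searched, CAGACA overlaps the reverse of GTCTG, and a match is only a description of letters. Against scramble, members with GGCGCC rose in at least 1 knockdown (Smad7 and Tgfbr3), fell (Tgfbr1) or did not pass (Smad2 and Smad3), and members without it rose (Tgfb3 and Tgfbr2) or did not pass (Tgfb1 and Smad4).

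The other genes of the pathway were taken from 5 lists, and the same test was read for each. Of 13 genes for latency, activation and co-receptors, 2 rose and 7 fell in double knockdown, 2 rose and 5 fell in Btg1 knockdown, and 7 rose and 5 fell in Btg2 knockdown, against 38.9%, 36.5% and 30.0% of all tested genes called in the same order. The list's median log2 changes were -0.23, -0.15 and 0.15. Ltbp2 encodes a matrix protein of the family named for binding latent TGF-beta, and a role of it in holding the ligand is not implied here. Ltbp2 fell in double knockdown (log2 change -0.74 ± 0.05, 84.0 against 140 CPM, edgeR adjusted p = 4.0e-10) and in Btg1 knockdown (-0.69 ± 0.05, 86.8 CPM, edgeR adjusted p = 1.4e-09). It rose in Btg2 knockdown (0.21 ± 0.05, 162 CPM, edgeR adjusted p = 0.0050). Ltbp3, a binding protein that helps to secrete the latent ligand, fell in all 3 knockdowns (-0.38 in double knockdown, -0.15 in Btg1 knockdown and -0.21 in Btg2 knockdown). Itgb5, an integrin subunit that can take part in activation of the latent ligand, rose in all 3 (0.20, 0.20 and 0.19 in the same order), and Furin, the protease that cuts the ligand's precursor, rose in double knockdown (0.20) and in Btg2 knockdown (0.15).

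Of 17 partners and modulators of SMADs, 8 rose and 5 fell in double knockdown, 6 rose and 4 fell in Btg1 knockdown, and 8 rose and 2 fell in Btg2 knockdown, against 38.9%, 36.5% and 30.0% of all tested genes called in the same order. The list's median log2 changes were 0.05, 0.04 and 0.10. The co-repressor Tgif1 fell in double knockdown (-0.42) and Btg1 knockdown (-0.38), while its relative Tgif2 rose in double knockdown (0.48), Btg1 knockdown (0.20) and Btg2 knockdown (0.31). Pmepa1, which sequesters receptor SMADs and is itself a TGF-beta target, fell in double knockdown by 0.48 on the log2 scale (83.8 against 117 CPM), in Btg1 knockdown by 0.18 (104 CPM) and in Btg2 knockdown by 0.37 (90.8 CPM). The Btg1 knockdown calls of both ended when any 1 of 3 libraries was left out: scramble replicate 1 or 2 or Btg1 knockdown replicate 2 for Tgif2 (edgeR adjusted p = 0.0844 to 0.152), and scramble replicate 1 or Btg1 knockdown replicate 1 or 2 for Pmepa1 (edgeR adjusted p = 0.0831 to 0.112). Sptbn1, a spectrin that serves as a SMAD adaptor, rose in all 3 knockdowns (0.30, 0.29 and 0.28 in double, Btg1 and Btg2 knockdown). Smurf2, a ubiquitin ligase for receptors and SMADs, had its largest rise in Btg2 knockdown (0.37 ± 0.05), and Ppm1a, a phosphatase of SMAD2 and SMAD3, rose there too (0.29 ± 0.04). Ppm1a fell in Btg1 knockdown (-0.25 ± 0.04, edgeR adjusted p = 2.9e-05) and in double knockdown (-0.12 ± 0.04, edgeR adjusted p = 0.020), and the double knockdown call ended without scramble replicate 1 or 3 or double knockdown replicate 3 (edgeR adjusted p = 0.0669 to 0.0906).

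Of 10 kinases and adaptors of the non-SMAD branch, 0 rose and 1 fell in double knockdown, 2 rose and 1 fell in Btg1 knockdown, and 3 rose and 1 fell in Btg2 knockdown, against 38.9%, 36.5% and 30.0% of all tested genes called in the same order. The list's median log2 changes were 0.00, 0.04 and 0.01. The gene that fell in double knockdown was Mapk8, or JNK1 (-0.20 ± 0.05, edgeR adjusted p = 0.0034). The next by p there did not pass: Map2k6 had a log2 change of -0.29, Mapk9 of 0.07 and Traf6 of 0.12. Tab2, an adaptor of the kinase TAK1, rose in Btg1 knockdown (0.20), and Traf6, the ubiquitin ligase that activates TAK1, rose in Btg1 knockdown (0.24) and in Btg2 knockdown (0.41). Map2k6, a kinase upstream of p38, fell in Btg1 knockdown (-0.46, edgeR adjusted p = 0.039) and in Btg2 knockdown (-0.57 ± 0.18, edgeR adjusted p = 0.017). Leaving out scramble replicate 2 or 3 or Btg1 knockdown replicate 2 or 3 ended the call of Traf6 in Btg1 knockdown (edgeR adjusted p = 0.0581 to 0.123). The Btg1 knockdown call of Map2k6 ended without scramble replicate 1, 2 or 3 or Btg1 knockdown replicate 1 (edgeR adjusted p = 0.0559 to 0.201). Its Btg2 knockdown call ended without scramble replicate 2 or Btg2 knockdown replicate 1 (edgeR adjusted p = 0.0553 to 0.0596). The list's count in Btg1 knockdown became 1 without scramble replicate 2 or 3. In Btg2 knockdown it became 2 without scramble replicate 1 or 2 or any 1 Btg2 knockdown library.

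Of 11 BMP receptors, BMP SMADs and ID genes, the neighbouring branch of the family, 1 rose and 3 fell in double knockdown, 6 rose and 0 fell in Btg1 knockdown, and 4 rose and 1 fell in Btg2 knockdown, against 38.9%, 36.5% and 30.0% of all tested genes called in the same order. The list's median log2 changes were -0.02, 0.20 and 0.13. The receptor Bmpr1a averaged 127 CPM in double knockdown, 150 CPM in Btg1 knockdown, 159 CPM in Btg2 knockdown and 121 CPM in scramble, and rose in the single knockdowns (0.31 ± 0.05 and 0.39 ± 0.05, edgeR adjusted p = 1.6e-05 and 1.9e-06). Its departure from additivity was -0.63 ± 0.07 (edgeR adjusted p = 7.9e-07), and that of the type II BMP receptor Bmpr2 was -0.54 ± 0.07 (edgeR adjusted p = 2.2e-05). In all, 6 of the 11 departed downward and 0 upward, where 15.1% of all tested genes departed (626 upward and 1264 downward, or 33.1% upward, against 49.7% with library size alone). Smad1, which carries BMP signals, rose in double knockdown (0.20) and Btg1 knockdown (0.35), and its relative Smad9 fell in double knockdown (-0.71 ± 0.13, 4.40 against 7.15 CPM). Id3, a BMP target, fell in double knockdown (-0.17) and Btg2 knockdown (-0.22) and rose in Btg1 knockdown (0.20), and the type I receptor Acvr1 fell in double knockdown (-0.18). The double knockdown calls of Acvr1 and Id3 ended without scramble replicate 1 (edgeR adjusted p = 0.0531 for Acvr1) or scramble replicate 2 (0.0523 for Id3).

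Of 16 genes that TGF-beta commonly induces in many cell types, 2 rose and 9 fell in double knockdown, 2 rose and 4 fell in Btg1 knockdown, and 3 rose and 0 fell in Btg2 knockdown, against 38.9%, 36.5% and 30.0% of all tested genes called in the same order. The list's median log2 changes were -0.16, -0.08 and 0.04. In double knockdown the transcription factor Snai1 (-0.45 ± 0.09), the protease inhibitor Timp1 (-0.18 ± 0.04), the transcription factor Bhlhe40 (-0.19 ± 0.05) and the matrix proteoglycan Vcan (-0.24 ± 0.06) fell. Vcan also fell in Btg1 knockdown (-0.44 ± 0.06) and rose in Btg2 knockdown (0.36 ± 0.06). Fibronectin, Fn1, fell in double knockdown (-0.22, edgeR adjusted p = 0.0037) and in Btg1 knockdown (-0.22), and rose in Btg2 knockdown (0.20). The matricellular gene Ccn2 averaged 665 CPM in double knockdown, 1069.7 CPM in Btg1 knockdown, 735 CPM in Btg2 knockdown and 665 CPM in scramble. It rose in Btg1 knockdown (0.69 ± 0.09, edgeR adjusted p = 1.6e-04) and departed from additivity by -0.83 ± 0.13 (edgeR adjusted p = 0.0017). Without scramble replicate 2 the count of 11 in double knockdown became 7, and that of 3 in Btg2 knockdown became 1. The Btg2 knockdown call of Fn1 ended without scramble replicate 2 or Btg2 knockdown replicate 2 (edgeR adjusted p = 0.0531 to 0.0542).

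**Figure D5:**
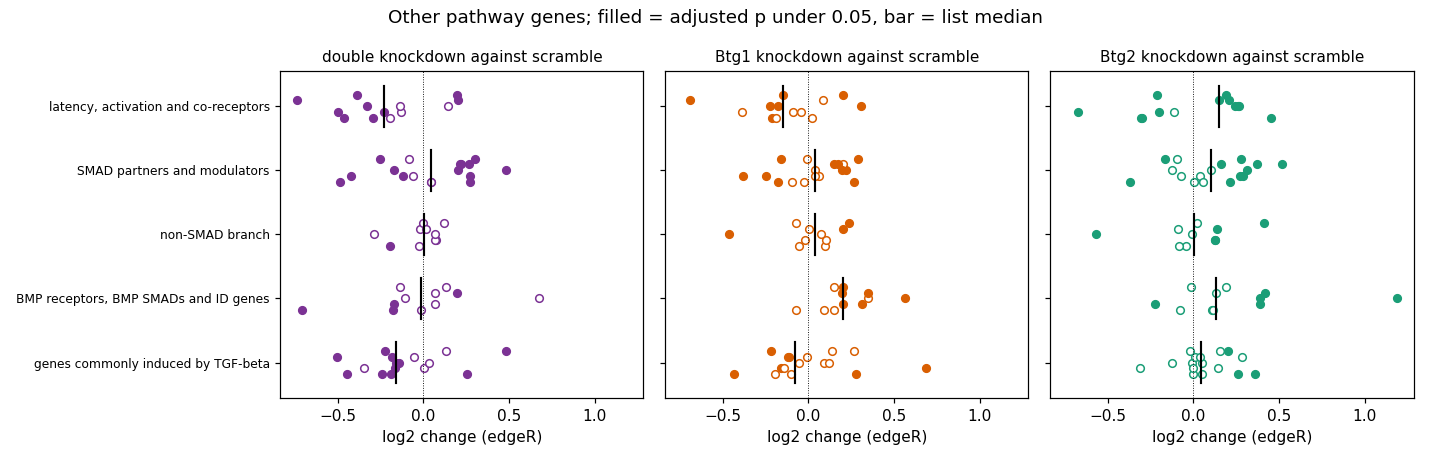
Log2 change against scramble (horizontal axis) of the tested genes of 5 pathway lists in double knockdown, Btg1 knockdown and Btg2 knockdown; each point is a gene, filled where its edgeR adjusted p is under 0.05, and the bar is the list's median. The median of the latency list is at -0.23 in double knockdown and 0.15 in Btg2 knockdown, and that of the BMP list is at 0.20 in Btg1 knockdown.

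Several of these genes are matrix or fibroblast genes, and markers of other cells moved as well. Beside the marker counts, 38.9%, 36.5% and 30.0% of all 12535 tested genes were called in double, Btg1 and Btg2 knockdown against scramble. Of all tested genes, 2444, 2229 and 1709 fell in the same order. The 11 fibroblast markers summed to 5575 to 6308 TPM in double knockdown, 5644 to 6426 TPM in Btg1 knockdown, 6762 to 6898 TPM in Btg2 knockdown and 6991 to 7166 TPM in scramble, and 10, 9 and 6 of them fell in the 3 knockdowns in that order. The 10 endothelial markers summed to 49.3 to 56.0 TPM in double knockdown, 60.3 to 69.9 TPM in Btg1 knockdown, 59.4 to 61.7 TPM in Btg2 knockdown and 68.8 to 75.3 TPM in scramble, with 7, 2 and 4 falling and 1, 1 and 0 rising. The 12 macrophage and leukocyte markers summed to 59.8 to 61.0 TPM in double knockdown, 52.7 to 64.3 TPM in Btg1 knockdown, 50.7 to 51.6 TPM in Btg2 knockdown and 68.0 to 82.9 TPM in scramble, with 3, 3 and 7 falling.

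The 6 smooth muscle and myofibroblast markers summed to 2752 to 3005 TPM in double knockdown, 2997 to 3733 TPM in Btg1 knockdown, 2950 to 3313 TPM in Btg2 knockdown and 2546 to 2784 TPM in scramble, with 3, 2 and 1 rising and 1, 0 and 0 falling. The 4 epicardial markers in the table summed to 265 to 293 TPM in double knockdown, 193 to 209 TPM in Btg1 knockdown, 254 to 283 TPM in Btg2 knockdown and 195 to 202 TPM in scramble, with 2, 1 and 2 rising and 1, 0 and 1 falling. Erythroid and Schwann or neuronal markers summed to 3.3 to 6.6 TPM and 3.4 to 6.2 TPM over all libraries. The counts here also stand beside 38.9%, 36.5% and 30.0% of all tested genes called in the same order. No listed marker in the table was at 0 in every library. In bulk RNA, fewer cells of a type and less RNA per cell cannot be told apart, and the part of these markers in the changes of Tgfb3, Tgfbr1, Tgfbr2, Smad6 and Smad7 was not tested.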

How the data were processed

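The authors deposited raw counts per gene and TPM (values scaled for transcript length and depth) for the 12 libraries. Per the labels' protocols, amplification used an Ovation RNA-Seq kit, Nextera XT libraries were sequenced from both ends on an Illumina HiSeq, and no molecular identifiers are stated. STAR, featureCounts, cutadapt, Trim Galore, FastQC and the rn5 build appear in the submitters' processing notes, without versions. Neither the annotation nor the strand setting is given there, so reads of overlapping genes may be shared.

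From the deposited counts, edgeR 4.0.16 (R 4.3.3, limma 3.58.1) was fitted once to all 12 libraries with 1 mean per group: TMM scaling, filterByExpr (12535 of 17419 genes kept, 4884 removed), robust quasi-likelihood fit on 8 residual degrees of freedom (common biological coefficient of variation 4.97%), and Benjamini-Hochberg adjustment over all tested genes in each of 7 comparisons, called under 0.05. The SE is the log2 change divided by the square root of F. The code was tested on simulated data. Counts of 1 group's libraries differed beyond sampling noise (chi-square per degree of freedom 4.07 to 25.7), so none was merged.

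Each result was recomputed with DESeq2 1.42.0, with RLE factors or no factors beyond library size, without a filter or after asking for 1 CPM in 6 libraries, on the compared groups only, with replicate number as a blocking term, by limma on log2 of TPM plus 1 or plus 0.1, and with 1 library omitted at a time. The members and all lists were chosen with earlier results of these data known. All members are named. From each pathway list, the 4 genes with the smallest p in double knockdown and the 2 with the smallest p in each single knockdown against scramble were named, plus the departures of Bmpr1a, Bmpr2 and Ccn2, which were chosen after their values were seen. Likeness was computed for the 3 members with the largest change, over genes of at least 5 CPM. Itgav, Ski, Skil, Trim33, Ep300 and Upk3b were not analysed here, and 1 gene by likeness is not reported here.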

Additional observations from a re-analysis of the deposited data

Results flagged for a closer look

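The effect of adding siRNA against the second gene differed with the state of the first for 2 members, by edgeR's interaction test. For Smad7 the double knockdown was below the sum of the single knockdowns by a log2 difference of -0.41 (edgeR adjusted p = 0.0015). For Tgfb3 the difference was -0.28 (edgeR adjusted p = 0.036, and 0.0044 to 0.110 over its alternatives). The targets Btg1 and Btg2 also departed downward (-0.44 and -0.65), and the part of that in these results was not tested.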

How the results depend on the processing

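Of 24 calls of members, 15 held under every alternative run and 9 were lost under at least 1. The rise of Tgfb3, Smad6 and Smad7 in Btg1 knockdown, that of Tgfbr2 in double and Btg2 knockdown, and the fall of Tgfbr1 in double knockdown held under all. With only the groups compared in the fit, the members called became 5 in Btg1 knockdown (3 in the fit reported) and 4 in Btg2 knockdown (2), both against scramble. With limma on either log2 TPM scale they became 1 in Btg2 knockdown against scramble, 3 in double against Btg1 knockdown (6), and 1 for the departure from additivity (2), which was also 1 with library size alone. Leaving out 1 library gave 1 to 3 members in Btg2 knockdown against scramble, 3 to 7 in Btg1 against Btg2 knockdown (6) and 1 to 4 for the departure. No count of all genes called moved by over 1.5 times. The cause was not tested. Library size alone put 41.3% of calls upward in Btg2 knockdown against scramble (54.5% with TMM), 58.2% in double against Btg2 knockdown (47.3%) and 49.7% for the departure (33.1%).

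Signs turned only for values that were not called. With library size alone the log2 change of Ccn2 in double knockdown against scramble was -0.0022 and that of Smad3 in double against Btg2 knockdown 0.0107. Leaving out 1 library in turn, log2 changes in double knockdown against scramble ran from -0.0133 to 0.0394 for Tab2, -0.0498 to 0.0300 for Ccn2, -0.0164 to 0.129 for Bmpr2 and -0.0684 to 0.028 for Smad4. In Btg1 knockdown against scramble they ran from -0.021 to 0.0466 for Tgfb1 and -0.101 to 0.0298 for Tgfbr3, and in Btg2 knockdown from -0.0388 to 0.032 for Bhlhe40, -0.135 to 0.0177 for Smad9 and -0.0308 to 0.142 for Snai1. In double against Btg1 knockdown they ran from -0.0283 to 0.068 for Smad4 and -0.0062 to 0.124 for Tgfbr3. In double against Btg2 knockdown they ran from -0.133 to 0.00461 for Tgfb1, -0.0112 to 0.0254 for Smad2 and -0.0654 to 0.0765 for Smad6. The departure ran from -0.0903 to 0.00514 for Smad4.

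The induced-gene list had 6 calls in Btg2 knockdown with only the groups compared (3), and the non-SMAD list 2 with limma (4).

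The replicate numbers are in the labels, but samples of 1 number did not deviate together: 3 of 18 same-number pairs correlated above 0.1 (range -0.23 to 0.18), and 4 of 12 libraries correlated best with their own number. With the replicate block, genes called were 4759 in double, 4455 in Btg1 and 3650 in Btg2 knockdown against scramble, 2659 in double against Btg1, 3919 in double against Btg2 and 4985 in Btg1 against Btg2 knockdown, and 1768 for the departure. Members called under the block were 2, 3, 2, 4, 3, 6 and 2 in that order, and only the 4 (6 without the block) differed: in double against Btg1 knockdown Smad3 (edgeR adjusted p = 0.067) and Smad6 (0.078) no longer passed.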
